A study of Mus musculus with 10 samples.

Results

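The regions described here are the stretches of the mouse genome that were called as bound by Dlx2 in the basal ganglia at embryonic day 16 (E16) and again in the cortex at postnatal day 3 (P3), but in none of the other libraries of the study. They were found by pooling the called regions of 5 lists on chromosomes 1 to 19 and X, merging regions that share at least 1 bp, and keeping the merged regions that hold a region of both of these lists and of no other. There were 349 of them among 18606 merged regions, or 1.88%. They were built from 352 regions called in P3 cortex and 349 called in E16 basal ganglia, and 347 of the 349 joined a single region from each.

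Chromatin immunoprecipitation followed by sequencing (ChIP-seq) with an antibody against Dlx2 was carried out on P3 cortex, P3 olfactory bulb, E16 basal ganglia, E16 cortex and E16 olfactory bulb of mice, with 1 library for each. Tissue was fixed in formaldehyde and the chromatin was sheared by sonication. No strain, genotype or number of animals per library is stated in the labels, and the matching input libraries were not analysed here. With 1 library per group there is no replicate, so no p-value is given and differences between lists cannot be set against the spread between animals.

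Dlx2 is a homeodomain transcription factor that, with its partner Dlx1, is needed for the birth and migration of forebrain GABAergic neurons. It is made in the ganglionic eminences, the embryonic source of striatal neurons and of interneurons. Cortical interneurons are born in this basal tissue and travel from there into the cortex, where they settle before and around birth. A region called in the embryonic basal ganglia and in the postnatal cortex is therefore one called in the tissue of origin and in a tissue of destination. Homeodomain proteins of the Dlx family bind short stretches of DNA centred on the letters TAATT, which read AATTA on the opposite strand.

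A minority of the 349 regions lay at gene starts that are annotated with sequence. Of the 333 regions on chromosomes other than 18, 33 overlapped a promoter window, meaning the stretch from 250 bases before to 50 bases after a RefSeq transcription start (build GRCm38.p6, the same as mm10). The sequences below are the 250 bases upstream of a start for 5 of the 10 such genes whose regions ranked highest in both lists together. The choice shows upstream stretches with homeodomain letters and others without. They are given 5′ to 3′ on the gene's strand, in lower case, with each TAATT or AATTA, and any run formed by overlapping matches, in capitals. The stretches are chr2:45113254-45113503 (minus strand) for Zeb2, chr12:29528134-29528383 (plus strand) for Myt1l, chr2:27572944-27573193 (plus strand) for the non-coding RNA gene Gm52506, chr3:94412994-94413243 (plus strand) for Tdrkh and chr7:44748350-44748599 (minus strand) for Zfp473.
Zeb2: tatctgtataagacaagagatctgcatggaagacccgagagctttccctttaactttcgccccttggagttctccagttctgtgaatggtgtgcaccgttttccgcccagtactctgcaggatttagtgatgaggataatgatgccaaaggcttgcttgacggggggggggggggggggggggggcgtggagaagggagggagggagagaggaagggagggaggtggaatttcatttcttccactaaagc
Myt1l: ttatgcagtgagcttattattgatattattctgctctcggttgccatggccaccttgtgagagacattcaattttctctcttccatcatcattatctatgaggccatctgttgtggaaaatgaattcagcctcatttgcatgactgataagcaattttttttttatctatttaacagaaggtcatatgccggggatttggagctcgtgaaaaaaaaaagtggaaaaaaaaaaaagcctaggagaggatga
Gm52506: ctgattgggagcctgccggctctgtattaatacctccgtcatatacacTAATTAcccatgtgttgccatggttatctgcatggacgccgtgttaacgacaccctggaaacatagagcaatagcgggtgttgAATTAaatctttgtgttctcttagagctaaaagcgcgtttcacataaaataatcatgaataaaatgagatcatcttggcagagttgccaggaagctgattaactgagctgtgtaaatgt
Tdrkh: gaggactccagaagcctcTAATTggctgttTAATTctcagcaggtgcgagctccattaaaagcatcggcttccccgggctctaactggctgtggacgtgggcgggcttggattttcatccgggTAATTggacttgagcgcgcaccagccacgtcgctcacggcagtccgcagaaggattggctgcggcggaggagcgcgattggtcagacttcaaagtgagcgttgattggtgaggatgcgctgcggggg
Zfp473: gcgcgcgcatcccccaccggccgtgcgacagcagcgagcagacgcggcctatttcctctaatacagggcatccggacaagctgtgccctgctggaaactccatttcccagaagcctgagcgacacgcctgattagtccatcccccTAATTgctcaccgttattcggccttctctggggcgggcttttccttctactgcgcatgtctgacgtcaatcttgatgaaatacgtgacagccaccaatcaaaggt

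Zeb2 encodes a zinc finger repressor that directs migrating interneurons towards the cortex, and Myt1l encodes a zinc finger factor of postmitotic neurons. The stretches printed for these genes hold no TAATT on either strand. At Zeb2 the summits, the points of strongest signal in a region, lay 75 bp downstream of the start in the P3 cortex list and 101 bp downstream in the E16 basal ganglia list. Both Zeb2 summits are outside the printed stretch and the promoter window, so the letters beside them were not read. At Myt1l the summits lay within the printed stretch, 103 bp upstream in the P3 cortex list and 166 bp upstream in the E16 basal ganglia list. The stretch upstream of Gm52506 holds 2 capitalised matches, that of Tdrkh, a Tudor-domain gene of the piRNA pathway, holds 3, and that of Zfp473, a zinc finger gene, holds 1. At Gm52506 the match nearest to the P3 cortex summit lay 8 bp from it. The match nearest to the E16 basal ganglia summit there was the other one, 21 bp away. At Zfp473 the match lay 18 bp from the P3 cortex summit and 8 bp from the E16 basal ganglia summit. At Tdrkh the nearest match lay 42 bp from the P3 cortex summit and 32 bp from the E16 basal ganglia summit. A match of letters is a description of the window and does not show where the protein sat.

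The lists behind these regions differ in length. On the 20 chromosomes used, the P3 cortex list holds 2116 regions and the E16 basal ganglia list 14732, while the E16 cortex, E16 olfactory bulb and P3 olfactory bulb lists hold 6307, 1665 and 732. Read depth is unknown for all of them. Only the P3 cortex list has region names without the label that the other lists use for duplicate removal, and batch and group cannot be told apart. Peak lists carry no expression values, so the labelled tissues could not be checked against marker genes here.

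Fold enrichment is a ratio written by the authors' peak caller, which divides the summit's signal by a local background. Among the 349 regions, 15 had a fold under 2 in either list, and 14 of these were under 2 in both. The share of 4.30% (2.43 to 6.99) compares with 0.440% of the P3 cortex only regions and 0.0960% of the E16 basal ganglia only regions, each by the fold in its own list. Of the 15, 10 lay between chr9:3000221 and chr9:3037449, where the P3 cortex fold ran between 1.21 and 1.56 and the E16 basal ganglia fold between 1.19 and 1.53. This span held 12 regions of the P3 cortex list, 19 of the E16 basal ganglia list and 0 of the other lists. The remaining low-fold regions were 2 on chromosome 14, 2 on chromosome 2 and 1 on chromosome 3. Without these 15 regions, 334 remained.

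Seen from the P3 cortex list, the shared regions are a sizeable minority. They made up 16.6% (95% exact binomial interval 15.04 to 18.3) of the 2101 merged regions that hold a P3 cortex region, and 2.45% (2.21 to 2.72) of the 14227 that hold an E16 basal ganglia region. In all, 629 merged regions held both lists, or 29.9% of those with a P3 cortex region. The 349 without a further list were 55.5% (51.5 to 59.4) of these 629. The others also held a region of an olfactory bulb list in 243 cases and of the E16 cortex list in 107 cases, with some in both. All intervals given here cover counting error only, not the spread between animals.

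The regions were chosen by being called in both lists, that is, by their enrichment in these libraries and the lack of a call in the others, so their strength is described without a test. The median fold was 4.17 in the P3 cortex list (range 1.21 to 22.9) and 5.18 in the E16 basal ganglia list (range 1.19 to 20.5). The middle 50% of regions ran between 3.61 and 4.90 in the P3 cortex list and between 4.10 and 7.43 in the E16 basal ganglia list. Folds of single libraries are comparable only within a list, because depth is unknown. By −log10 q, with 100 the strongest, the median region stood at percentile 44.8 (exact 95% interval of the median 38.8 to 49.9) of the P3 cortex list and at percentile 66.8 (59.0 to 71.2) of the E16 basal ganglia list. Percentiles of lists as unequal in length as these show a place within each list and no difference between them. With every list cut to its 732 strongest regions, 14 regions met the rule. Their median percentiles were 37.0 (23.9 to 73.6) in the P3 cortex list and 40.9 (13.5 to 87.3) in the E16 basal ganglia list, intervals too wide to compare the lists. At or above percentile 90 there were 6 of the 349 in the P3 cortex list and 46 in the E16 basal ganglia list, with 1 region in both sets.

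**Figure D1:**
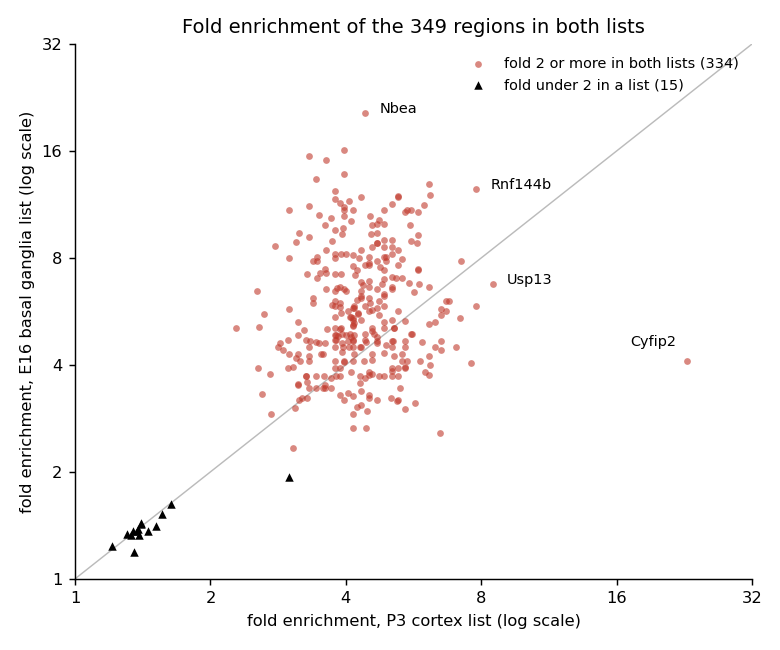
Fold enrichment of each of the 349 regions in the P3 cortex list (x axis, log scale) and in the E16 basal ganglia list (y axis, log scale), with the line of equal fold in grey. Of the 15 regions with a fold under 2 in either list (triangles), 14 sit apart at 1.63 or less in both lists, the remaining triangle lies at the edge of the other 334, and Cyfip2 at 22.9 in the P3 cortex list stands far from the rest.

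The regions called in these lists and also in a bulb list, but not in E16 cortex, had higher medians. These 173 regions had median folds of 4.52 in the P3 cortex list and 7.67 in the E16 basal ganglia list. Their median percentiles were 57.0 (46.5 to 64.1) in the P3 cortex list and 85.5 (78.2 to 90.8) in the E16 basal ganglia list. The first interval overlaps that of the 349 in the same list, and the second lies above it. The 1363 regions called in P3 cortex only had a median fold of 4.43 and stood at percentile 48.5. The 9377 regions called in the E16 basal ganglia only had a median fold of 4.30 and stood at percentile 44.2. Strength in one list told little of strength in the other: over the 349 regions Spearman's rho was 0.222 for the folds and 0.0790 for the percentiles, given as a description since all values come from the same pair of libraries. In the P3 cortex list, 226 of the 349 regions carried exactly the same fold as another of them, so ties are frequent.

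**Figure D2:**
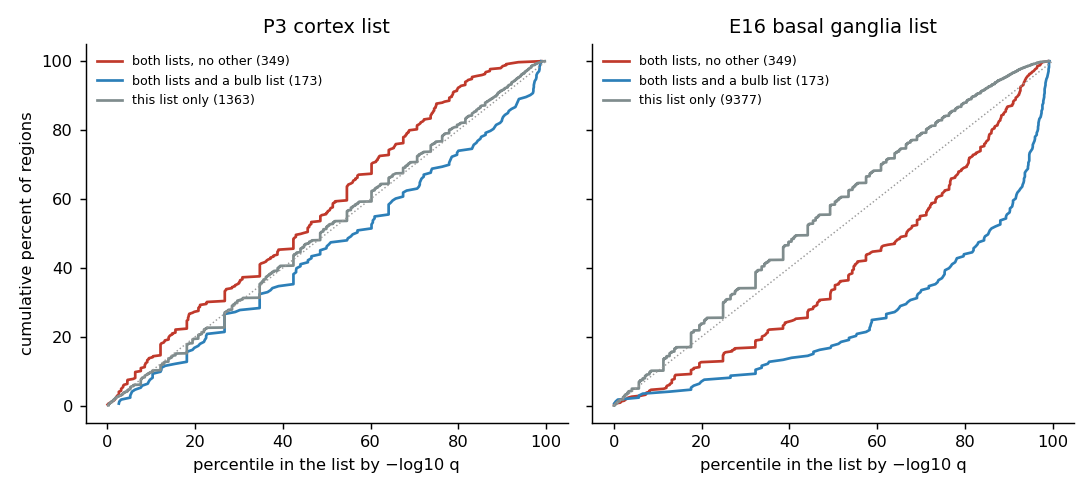
Cumulative percent of regions (y axis) against the percentile of a region in its list by −log10 q (x axis), in the P3 cortex list on the left and the E16 basal ganglia list on the right. The 349 regions (red) have their median at percentile 44.8 on the left and 66.8 on the right, with the 173 regions that also hold a bulb list (blue) further to the right in both panels.

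Within these regions the summits of the lists were usually close, a distance that the overlap itself limits. The median distance between the summit of the P3 cortex region and that of the E16 basal ganglia region was 61 bp, with a range of 0 to 780 bp. Summits lay within 100 bp of each other in 244 of 349 regions, or 69.9% (64.8 to 74.7), and within 200 bp in 306, or 87.7%. The signed distance, P3 cortex minus E16 basal ganglia, had a median of -2 bp, with the middle 50% between -68 and 51 bp, so summits of the P3 cortex list lay on either side of those of the E16 basal ganglia list. The 173 regions with a bulb list had their summits within 100 bp in 68.2% (60.7 to 75.1), an interval that overlaps the one above. The P3 cortex region was the narrower one in 269 of 349, with median widths of 380 bp in the P3 cortex list and 531 bp in the E16 basal ganglia list, and it lay wholly within the E16 basal ganglia region in 173.

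**Figure D3:**
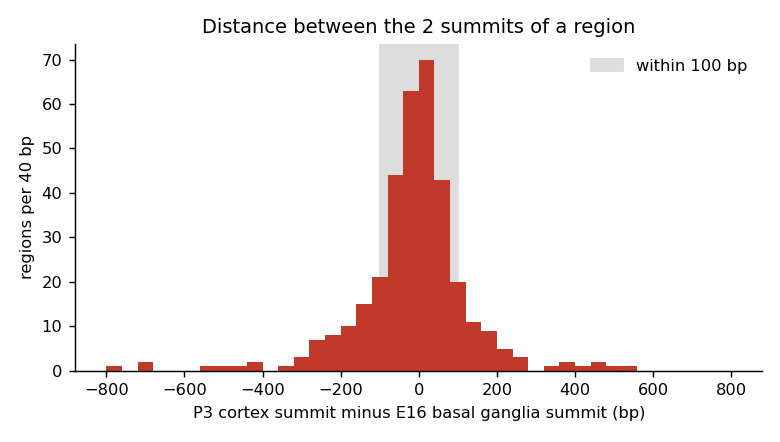
Number of regions per 40 bp (y axis) by the distance from the E16 basal ganglia summit to the P3 cortex summit of the same region (x axis, bp; negative values lie at lower coordinates). The shaded band marks 100 bp on either side, which holds 244 of the 349 regions.

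The rule counts any overlap, and the members nearest to that limit shared 25, 52 and 82 bp. The region with 52 bp lay in Trmt2a on chromosome 16 (fold 4.69 in the P3 cortex list and 3.18 in the E16 basal ganglia list), and the one with 82 bp at Mylpf on chromosome 7 (fold 4.43 in the P3 cortex list and 2.66 in the E16 basal ganglia list). Just outside the rule, the closest pairs of regions were separated by 27 bp near Pdzrn3, by 47 bp at 0.72 kb from Cxcr4, and by 133 bp near Adamts6. Cxcr4 encodes the chemokine receptor that guides migrating interneurons, and its pair had folds of 4.12 in the P3 cortex list and 3.10 in the E16 basal ganglia list. In all, 12 pairs of regions missed the rule by at most 500 bp.

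The strongest regions in both lists together fell at genes of varied function. Rnf144b, which encodes a RING-type ubiquitin ligase, was nearest to the region of lowest summed rank, at chr13:47310471-47311399 and 62.9 kb outside the gene. Its fold was 7.78 in the P3 cortex list and 12.5 in the E16 basal ganglia list, and its summits lay 23 bp apart. It was also among the 5 highest folds of the 349 in the P3 cortex list.

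The next in summed rank were in or near Dars, Etv5, Negr1, Plet1, Gm10461, Nbea, Ankrd7, Pik3c3, Grik3, Npas3, Neb, Fscb, Qk and Auh. Over these and Rnf144b, 15 in all, the P3 cortex fold ran between 4.41 and 7.78 and the E16 basal ganglia fold between 8.79 and 20.5. Etv5 encodes an ETS-family transcription factor acting downstream of growth factor receptors, and its region (chr16:22389469-22390039, in the gene) had a fold of 5.96 in the P3 cortex list and 11.3 in the E16 basal ganglia list. Negr1 encodes a cell adhesion molecule of the neuronal surface, and its region (chr3:156903697-156904672, in the gene) had a fold of 6.14 in the P3 cortex list and 12.9 in the E16 basal ganglia list. Grik3 encodes a kainate-type glutamate receptor subunit. The region in it (chr4:125534250-125535794) was among the 5 widest, at 1545 bp, with a fold of 5.23 in the P3 cortex list and 11.9 in the E16 basal ganglia list. Qk encodes an RNA-binding protein of glial cells, and the region in it (chr17:10227960-10228757) had a fold of 4.68 in the P3 cortex list and 8.79 in the E16 basal ganglia list. Dars, an aminoacyl-tRNA synthetase gene, Neb, the gene of the muscle protein nebulin, and Auh, a gene of mitochondrial leucine breakdown, held their regions within the gene body too. Where the region lay outside a protein-coding gene, the nearest one was up to 288 kb away, as at Nbea, a gene of synaptic membrane trafficking, so the names are positions and not targets.

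A few regions were strong in a single list. Cyfip2 encodes a subunit of the WAVE complex, which drives actin branching. The region in it (chr11:46214788-46215689) had a fold of 22.9 in the P3 cortex list, where it ranked 23, and of 4.11 in the E16 basal ganglia list, where it ranked 9761, and its summits were 324 bp apart. It was the highest P3 cortex fold of the 349, well above the next, 8.48 in Usp13, a deubiquitinase gene, where the E16 basal ganglia fold was 6.74. Regions near Galc, which encodes the lysosomal enzyme galactosylceramidase, and near Gdf6, a gene of a bone morphogenetic protein family ligand, had P3 cortex folds of 7.78 and 7.58.

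At the other end, the region nearest to Nbea (chr3:56471082-56471989) had a fold of 4.41 in the P3 cortex list and 20.5 in the E16 basal ganglia list, the highest of the 349 there. The others of the 5 highest E16 basal ganglia folds were nearest to Rps6kc1, Slc4a3, Tfec and Nol4, with P3 cortex folds between 3.31 and 3.97 and E16 basal ganglia folds between 13.8 and 16.05. With Nbea, these regions ranked 1208 to 1983 of 2116 in the P3 cortex list. Of the 5 widest regions, the widest lay on chromosome 14 near Gm2244 (2359 bp) and is one of the 15 with low fold, at 1.39 in the P3 cortex list and 1.33 in the E16 basal ganglia list. Myo3b, a class III myosin gene, held a region of 1507 bp in which the summits lay 780 bp apart, the largest distance seen. The others were in Grik3, in Dars and, 1334 bp wide, 72.5 kb outside Irf2bp2, its nearest protein-coding gene.

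Relative to genes, the regions lay more often outside genes than those of the E16 basal ganglia list as a whole. Taking the E16 basal ganglia summit, 55 of the 349 (15.8%, interval 12.1 to 20.01) were within 1 kb of a gene's start or end, 157 (44.99%, 39.7 to 50.4) elsewhere in a gene and 137 (39.3%, 34.1 to 44.6) outside genes. Over all merged regions with an E16 basal ganglia region the shares were 16.3% at a boundary and 24.2% outside genes. Among regions of the E16 basal ganglia only, 57.8% lay elsewhere in a gene and 28.4% (27.5 to 29.4) outside genes, an interval apart from that of the 349. Among regions of P3 cortex only, 46.0% lay elsewhere in a gene and 37.6% (35.1 to 40.3) outside, which overlaps it. The boundary share was 27.2% (20.7 to 34.4) where a bulb list was held too, above the interval of the 349. Without the 15 regions of low fold, 36.5% were outside genes. With every list cut to its 732 strongest regions, 1 of the 14 regions that met the rule was outside genes (7.14%, 0.181 to 33.9). This cut changes the strength and the membership of the regions along with list length. Which of these the lower share follows was not tested. No share of the other groups was computed at that length, so whether the regions stand above them there was not determined. The class of the position was the same at both summits for all but 4 regions.

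**Figure D4:**
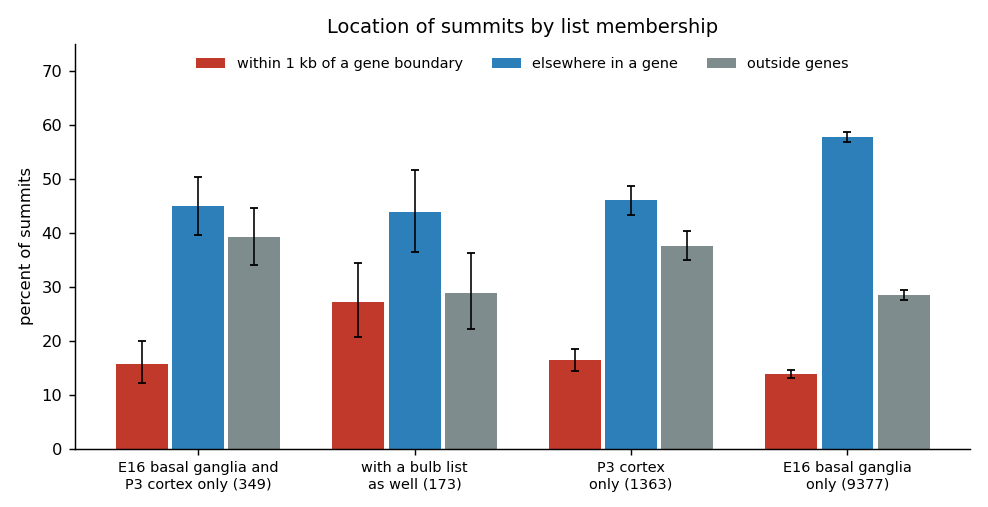
Percent of summits (y axis) within 1 kb of a gene's start or end, elsewhere in a gene and outside genes, for the 349 regions and 3 other groups of merged regions, with 95% exact binomial intervals as bars. The share outside genes is 39.3% for the 349 regions, against 37.6% for P3 cortex only and 28.4% for E16 basal ganglia only.

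Regions at gene boundaries had a median fold of 3.89 in the P3 cortex list and 4.60 in the E16 basal ganglia list, and a median summit distance of 87 bp. Regions elsewhere in a gene had median folds of 4.33 in the P3 cortex list and 5.60 in the E16 basal ganglia list, with summits a median of 49 bp apart. The boundary regions thus had the lower medians in both lists. A single region (0.287%) lay within 1 kb of a snRNA, snoRNA, tRNA or rRNA gene, near the 0.640% of all regions with an E16 basal ganglia region, the 0.320% of E16 basal ganglia only and the 0.954% of P3 cortex only. It was 26 of 173 (15.03%, 10.1 to 21.2) where a bulb list was held too.

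Many of the genes that held a region were long. In all, 162 of the 349 lay in a protein-coding gene, with a median length of 226 kb (178 to 275). The medians were 145 kb (137 to 150) for regions of the E16 basal ganglia only, 154 kb (133 to 168) for P3 cortex only and 185 kb (151 to 287) with a bulb list as well. Genes of at least 200 kb held 87 of the 162 (53.7%, 45.7 to 61.6). The shares were 49.3% (37.6 to 61.1) with a bulb list as well, 42.0% (38.1 to 46.0) for P3 cortex only and 39.7% (38.4 to 41.0) for E16 basal ganglia only. The intervals of the bulb group and of P3 cortex only overlap that of the 349. Taken at the P3 cortex summit, the median gene length for the 349 was 222 kb (165 to 275), and this interval overlaps that of P3 cortex only. Several regions share a gene, so they are not independent draws of genes.

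Counted by gene, 212 of 21631 protein-coding genes (0.98%) had a summit of the 349 within the gene or 10 kb of it. For genes of at least 200 kb it was 82 of 990 (8.28%). In 200 of the genes there was 1 such region and in 12 there were 2: Asap1, Bach2, Camta1, Dclk1, Enox1, Frmd4a, Jarid2, Negr1, Npas3, Ptprm, Robo1 and Zbtb16. Ptprm encodes a receptor tyrosine phosphatase of cell contacts. Its regions had folds of 4.56 and 2.54 in the P3 cortex list and 9.33 and 6.46 in the E16 basal ganglia list. These 12 were named after their counts were seen.

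Of 241 genes in 18 lists of forebrain, housekeeping and other cell type genes, 10 (4.15%) had such a region, and 8 of these were among the 43 listed genes of at least 200 kb (18.6%). For comparison, 40 of the 241 had any region of the P3 cortex list and 153 any region of the E16 basal ganglia list. Listed genes are longer than most, with a median of 24.04 kb against 17.3 kb for all protein-coding genes.

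Among factors of the ganglionic eminences and the GABAergic lineage, 2 of 28 genes (7.14%) held a region, Npas3 and Zeb2. They are 824 and 134 kb long, and the list's median length is 73.3 kb. The share was 0.98% of all protein-coding genes and 8.28% of those of at least 200 kb. Npas3, a bHLH-PAS transcription factor gene, held 2 regions, at chr12:53566525-53567382 and chr12:53647220-53647776. Their folds were 5.77 and 5.05 in the P3 cortex list and 9.30 and 7.09 in the E16 basal ganglia list, the second with its summits 2 bp apart. These were 2 of 3 P3 cortex regions and 2 of 20 E16 basal ganglia regions at Npas3, so the gene was much more widely marked in the E16 basal ganglia list. The region at Zeb2, at chr2:45112873-45113443 over the start shown above, had folds of 3.82 in the P3 cortex list and 6.57 in the E16 basal ganglia list. Zeb2 held 3 P3 cortex, 24 E16 basal ganglia and 30 E16 cortex regions in all.

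Among chemokine and migration genes, 3 of 20 held a region. The list's median length is 217 kb and the 3 genes are 1020 to 1084 kb long, so the share to set beside it is the 8.28% of long genes rather than the 0.98% of all. Erbb4 encodes the neuregulin receptor of migrating interneurons and Nrg1 its ligand, so a receptor and its ligand are both in the set. The region at Erbb4 (chr1:68046613-68047423) had folds of 5.10 in the P3 cortex list and 4.23 in the E16 basal ganglia list, at percentile 78.5 of the P3 cortex list and 59.0 of the E16 basal ganglia list. The region at Nrg1 (chr8:32380359-32381164) had folds of 4.41 in the P3 cortex list and 7.63 in the E16 basal ganglia list, at percentile 43.0 of the P3 cortex list and 87.7 of the E16 basal ganglia list. Erbb4 thus stood above Nrg1 within the P3 cortex list and below it within the E16 basal ganglia list. Robo1, the gene of a receptor for Slit guidance cues, held 2 regions (chr16:72221951-72222452 and chr16:72924333-72924981), and these were its only P3 cortex regions, against 16 of the E16 basal ganglia list. Their folds were 4.42 and 6.50 in the P3 cortex list and 4.88 and 5.75 in the E16 basal ganglia list. Erbb4, Nrg1 and Robo1 held no E16 cortex region. They did hold E16 bulb regions, 1 at Erbb4, 1 at Nrg1 and 2 at Robo1, and Erbb4 also held 1 P3 bulb region.

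Astrocyte markers had 3 of 10 genes with a region, all of them transcription factor genes that neural progenitors use too. Nfia and Nfib are 541 and 217 kb long, so the share to set beside them is the 8.28% of genes of at least 200 kb. Sox9 is 5.55 kb long, and the share of all protein-coding genes was 0.98%. At Sox9 the region (chr11:112781423-112781972) lay 0.647 kb outside the gene, with folds of 3.87 in the P3 cortex list and 3.73 in the E16 basal ganglia list. In Nfia (chr4:97758043-97758580) the folds were 4.15 in the P3 cortex list and 4.11 in the E16 basal ganglia list. At Nfib (chr4:82506963-82508217), 1.18 kb outside the gene, they were 3.85 in the P3 cortex list and 4.82 in the E16 basal ganglia list, with summits 696 bp apart. All 3 stood between percentiles 20.7 and 28.4 of the P3 cortex list, in its weaker part. Nfia and Nfib held 18 and 48 E16 cortex regions elsewhere at the gene.

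Of the remaining lists, adhesion and synapse genes had 1 of 26, Dlg2, a postsynaptic scaffold gene (chr7:91442834-91443229), with folds of 3.78 in the P3 cortex list and 5.08 in the E16 basal ganglia list and summits 16 bp apart. That list's median gene length is 298 kb, and its share of 3.85% compares with 8.28% of all protein-coding genes of at least 200 kb. Survival genes had 1 of 14, Ntrk2, the gene of the receptor for brain-derived neurotrophic factor (chr13:58964485-58965518), with folds of 4.51 in the P3 cortex list and 8.06 in the E16 basal ganglia list. That was the only P3 cortex region at Ntrk2, against 6 of the E16 basal ganglia list. Cortical interneuron subtype genes had 1 of 16, which is Erbb4 again. Ntrk2 and Erbb4 are 327 and 1077 kb long, so the 8.28% of long genes is the share to set beside each. The lists that follow have median gene lengths of 42.9 kb or less, and their counts of 0 are near the 0.98% of all protein-coding genes. No gene held a region among the 6 Dlx genes, 7 genes of GABA synthesis and transport, 17 Notch and neurogenesis genes, 14 of striatal projection neurons, 12 of bulb interneurons and 20 of the cortical glutamatergic lineage. The same held for the 14 ubiquitous genes, 9 small nuclear RNA processing and histone genes and the oligodendrocyte, microglia, endothelial, and liver and muscle markers.

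**Figure D5:**
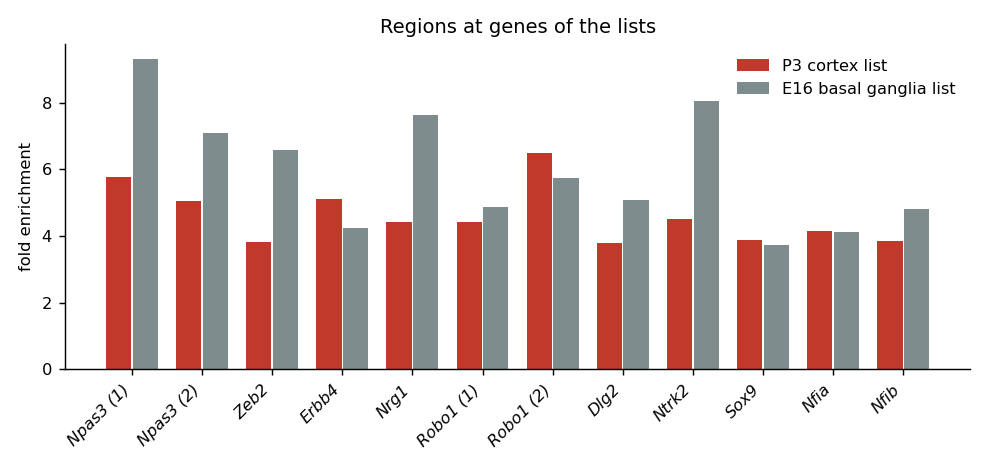
Fold enrichment (y axis) in the P3 cortex list (red) and in the E16 basal ganglia list (grey) of the 12 regions at the 10 listed genes, each bar a single library. Red bars run between 3.78 (Dlg2) and 6.50 (Robo1) and grey bars between 3.73 (Sox9) and 9.30 (Npas3), and heights are to be compared among bars of 1 colour only.

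Neither Cxcl14 nor the paired Dlx genes lay near these regions. Cxcl14, the chemokine gene in the study's title, had 0 regions of any list within 10 kb, and the nearest of the 349 was 1641 kb away. Dlx1 and Dlx2 had their nearest at 1400 and 1416 kb, and Dlx5 and Dlx6 at 6642 and 6656 kb. Dlx2 itself had 2 P3 cortex and 5 E16 basal ganglia regions within 10 kb, alongside 5 of E16 cortex and 2 of the E16 bulb. Dlx1, Dlx5 and Dlx6 had 4, 3 and 4 P3 cortex regions and 8, 2 and 3 E16 basal ganglia regions. They also had 6, 5 and 10 E16 cortex regions. Both lists thus had calls at these genes, though none that met the rule.

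A region of the E16 cortex list lay within 10 kb of 25 of the 349 (7.16%, 4.69 to 10.4), against 18.1% of E16 basal ganglia only and 4.18% of P3 cortex only regions. The median distance to the nearest was 393 kb for E16 cortex, 507 kb for E16 bulb and 1206 kb for P3 bulb, an order that follows the falling length of those lists. An E16 bulb region lay within 10 kb of 10 of the 349 (2.87%), against 3.85% for E16 basal ganglia only and 1.69% for P3 cortex only. A P3 bulb region did for 2 (0.573%), against 1.17% for E16 basal ganglia only and 1.25% for P3 cortex only. The counts for the bulb lists are near those of the other groups. The E16 cortex share lay between those of E16 basal ganglia only and P3 cortex only, and both of these were outside its interval. With a bulb list as well the share was 8.09% (4.49 to 13.2), which is inside that interval. Chromosome X held 1 of the 349 (0.287%, 0.00725 to 1.59), against 0.857% of all regions with a P3 cortex region and 1.19% of all with an E16 basal ganglia region, both within that interval.

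At promoters the 33 regions were 9.91% (6.92 to 13.6) of the 333 that could be looked up, against 5.49% (5.02 to 5.98) for E16 basal ganglia only, 9.53% for P3 cortex only and 10.3% with a bulb list as well. They had median folds of 3.82 in the P3 cortex list and 4.60 in the E16 basal ganglia list. They touched 44 promoter windows of 40 genes, 28 of them protein-coding, and at 7 the windows belonged to genes on both strands. The 10 genes ranking highest were Gm38452, Zeb2, Myt1l, Gm39767, Gm52506, E130006D01Rik, 1700040D17Rik, Tdrkh, Zfp473 and Slc25a17, of which 5 are protein-coding. The region at Gm38452 is the one nearest to Rps6kc1 among coding genes, with folds of 3.97 in the P3 cortex list and 16.05 in the E16 basal ganglia list.

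The E16 basal ganglia summit lay inside 25 of the 44 windows, and both summits lay inside 17. Shares of letters below therefore describe the windows and not the sequence at the summits. The homeodomain letters TAATT, read on both strands, were in 20 of the 44 windows, or 45.5% (30.4 to 61.2). They were in 27% of all 32619 promoter windows of the same length (8793 windows), in 52.4% (29.8 to 74.3) of the 21 touched by regions with a bulb list as well, in 38.1% (34.2 to 42.2) of those touched by regions of the E16 basal ganglia only and in 23.1% (16.8 to 30.4) of those touched by P3 cortex only. The longer TAATTA, each of which holds a TAATT, was in 15.9% (6.64 to 30.1) of the 44, against 9.52% with a bulb list as well, 9.91% for E16 basal ganglia only, 5.00% for P3 cortex only and 5.25% of all windows. The intervals of the 44 windows take in the values of the bulb and E16 basal ganglia groups for both runs of letters. G and C made up 57.0% of the windows, against 58.9% for P3 cortex only and 53.9% over all windows. GGGCGG, the GC box, was in 61.4% (45.5 to 75.6), against 71.4% with a bulb list as well, 61.3% for P3 cortex only, 46.3% for E16 basal ganglia only and 35.9% of all windows. CCAAT was in 54.5% (38.8 to 69.6), against 71.4% with a bulb list as well, 58.8% for P3 cortex only, 43.9% for E16 basal ganglia only and 37.6% of all windows. Of the other letters searched, some were less frequent than over all windows. TATAAA was in 4.55% (0.555 to 15.5) against 13.7%, and CAGCTG in 11.4% against 16.4%. AACAAAG and TGACTCA were in 0 of 44, an interval of up to 8.04%, against 5.84% and 5.22%. TGACAG (22.7% against 18.9%) and CAGATG (18.2% against 17.1%) were more frequent. For each of these letters the interval of the 44 windows takes in the value over all windows. Some of the 44 windows overlap each other, as at Zeb2 and Zfp473, so they are not independent and the intervals are too narrow. Whether the composition plays a part in the share with TAATT was not tested.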

How the data were processed

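For each Dlx2 library the authors deposited 1 narrowPeak list of called regions. Per the submitters' processing notes, the tools were MACS2, SAMtools, Bowtie2 and Trimmomatic, without versions, and the build was mm10, and the calling threshold is not given in the sources used here. In the deposited lists the fold enrichment is a ratio of summit signal over local background, and significance is given as −log10 of the p-value and q-value. The deposited score column was not used. These values describe and rank regions within a list only, and depth is unknown.

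Regions on chromosomes 1 to 19 and X were merged at an overlap of at least 1 bp. Where a merged region held several regions of a list, the one of highest −log10 q stood for it. Gene positions were those of RefSeq on GRCm38.p6, in a table that gives gene starts and ends without strand or exons, and promoter windows from a RefSeq table of the same build that holds none on chromosome 18. All 241 genes of the 18 lists were found. Shares carry exact Clopper-Pearson intervals at 95% and medians exact order-statistic intervals, for counting error only. Merging, list membership, placement and the count of regions per gene were tested on simulated data, and the intervals were not. Python 3.11.15, numpy 2.4.6, scipy 1.17.1, pandas 2.3.3 and matplotlib 3.10.9 were used.

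The regions, gene lists and measures were chosen with earlier results of these data known. Named genes are Cxcl14 and the Dlx genes, the protein-coding genes nearest to the 15 regions of lowest summed rank, to the 5 highest in fold in each list and to the 5 widest, listed genes with a region within 10 kb, and the 10 highest ranking promoter genes. Genes outside this rule were named after their values were seen: those next to the regions closest to the overlap limit on either side, of which 1 is left unnamed, and those with 2 regions. Alternatives covered the overlap, summit distance, −log10 q, list length, region width, merging distance, the other lists left out in turn, the gene set and boundary width, and, chosen after seeing the data, leaving out regions with a fold under 2.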

Additional observations from a re-analysis of the deposited data

Results flagged for a closer look

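Regions outside the chromosomes used were not part of the comparisons. On 1 unplaced sequence of the build, merging gave 16 further regions that hold the P3 cortex and E16 basal ganglia lists and no other. They came from 19 regions of the P3 cortex list and 31 of the E16 basal ganglia list, while the E16 cortex, E16 bulb and P3 bulb lists had 0 there. Their fold was between 1.30 and 1.53 in the P3 cortex list (median 1.39) and between 1.33 and 1.55 in the E16 basal ganglia list (median 1.41), close to the 10 low-fold regions on chromosome 9. Input libraries were not analysed here, so no control level stands beside this count.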

How the results depend on the processing

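No paired analysis was possible because each group has 1 library. Of 108 values recomputed under alternatives, 84 stayed within the counting interval or 1.5 times the count and 24 moved; the number of shared regions ran between 249 and 442 under all settings except equal list lengths. With summits within 200 bp, the share of P3 cortex regions was 14.6%, that of E16 basal ganglia regions 2.15% and summits within 100 bp 79.7%. With −log10 q of at least 5, these 3 values, in the same order, were 14.7%, 2.19% and 75.9%, and boundary summits 12.05%. With every list cut to the 732 strongest, 14 regions met the rule, 1.92% of P3 cortex and 1.93% of E16 basal ganglia regions, with summits within 100 bp 78.6%, median percentiles of 37.0 in the P3 cortex list and 40.9 in the E16 basal ganglia list, 7.14% outside genes and 1 listed gene, and no promoter window was left to search. Without regions over 1 kb the E16 basal ganglia percentile was 72.5. Without the E16 cortex list the P3 cortex share was 18.3%; without the E16 bulb list the shares were 21.0% of P3 cortex and 3.11% of E16 basal ganglia regions and the E16 basal ganglia percentile 71.5. With protein-coding genes only, 10.03% of summits lay at boundaries and 49.0% outside genes, and with 2 kb around a boundary 20.9% did. TAATTA in place of TAATT gave 15.9% of promoter windows. The cause of these shifts was not tested beyond what each setting changes by construction. Leaving out regions with a fold under 2, chosen after seeing the data, moved none of the values. Single libraries of unknown depth give no measure of how many would be called again.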
